A study of Mus musculus with 20 samples.

Results

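Mouse kidney tumours formed by MSRT1 cells were compared by how much Cxcl9 transcript they held. Cxcl9 was taken as log2 TPM minus the median log2 TPM of the same library, where TPM is the length-corrected share of a gene among all transcripts and the median runs over the 15422 genes that reach 1 TPM in 5 or more of the 20 libraries. After 2 GYY_PD1 libraries (replicates 1 and 4) were left out by the rule, 18 libraries were ranked. The 6 highest (high-Cxcl9 tumours) were set against the 6 lowest (low-Cxcl9 tumours), so 12 of the 20 libraries enter the comparison, 6 stand between and 2 were left out. Because Cxcl9 itself chose the libraries, its own values are given as a description, and every p-value below describes association with Cxcl9 in these 12 libraries and not an effect of a treatment. The library median enters both the ranking and the values of all other genes.

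Each library is the total RNA of 1 tumour from 1 mouse, and all 20 tumours come from the same cell line, labelled as a renal medullary carcinoma. That kidney cancer is known for the loss of SMARCB1, a subunit of SWI/SNF chromatin remodellers. The 4 treatment groups of 5 mice are GYY_PD1 (the slow hydrogen sulfide donor GYY4137 plus an antibody against the checkpoint receptor PD1), Veh_PD1 (vehicle with that antibody), GYY_IgG (GYY4137 with control antibody) and Veh_IgG (vehicle with control antibody). Doses, treatment times, mouse strain and age are not given in the sources used here. Krt8, Krt18 and Vim, which encode keratins and the mesenchymal filament vimentin, lay above the library median in all 20 libraries, whereas the epithelial adhesion gene Epcam did so in 3. Smarcb1 transcript was measured in all of them, at 1.34 to 2.00 log2 above the library median in high-Cxcl9 tumours and 0.87 to 1.85 in low-Cxcl9 tumours, and the gene was not called different (log2 difference 0.23 ± 0.16 SE, limma adjusted p = 0.687).

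CXCL9 is a chemokine that draws T cells and natural killer cells carrying the receptor CXCR3, together with its relatives CXCL10 and CXCL11. Its gene is switched on mainly by interferon gamma, a cytokine released by activated T cells and natural killer cells. The same signal induces guanylate-binding proteins (Gbp genes), immunity-related GTPases (Irg genes) and, through the coactivator CIITA, the class II major histocompatibility complex (MHC) that presents peptides to helper T cells. In tumours CXCL9 is made largely by macrophages and dendritic cells, and it is widely read as a sign of a T cell-inflamed tumour.

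Cxcl9 (chr5:92321347-92328079 on mm10, minus strand) stood at 1.71, 1.37, 1.24, 0.26, 0.24 and 0.18 log2 relative to the library median in the 6 high-Cxcl9 tumours, against -2.03, -2.55, -2.88, -3.12, -3.85 and -4.60 in the 6 low-Cxcl9 tumours. The high libraries were, in that order, GYY_PD1 replicate 2, Veh_PD1 replicates 1 and 4, GYY_PD1 replicates 3 and 5, and GYY_IgG replicate 2. The low libraries were Veh_IgG replicates 4, 3 and 5, Veh_PD1 replicates 3 and 5, and Veh_IgG replicate 2. Rescaled to nuclear protein-coding transcripts, Cxcl9 ran between 30.5 and 83.9 TPM in the high-Cxcl9 tumours, against 1.08 to 6.53 TPM in the low-Cxcl9 tumours, and ranking on that scale chose the same 12 libraries. Just outside the high set came GYY_IgG replicate 1 at -0.08, against 0.18 for the last library inside. Just outside the low set came Veh_IgG replicate 1 at -1.95, against -2.03 for the first library inside, so the lower boundary is not a gap in the values.

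**Figure D1:**
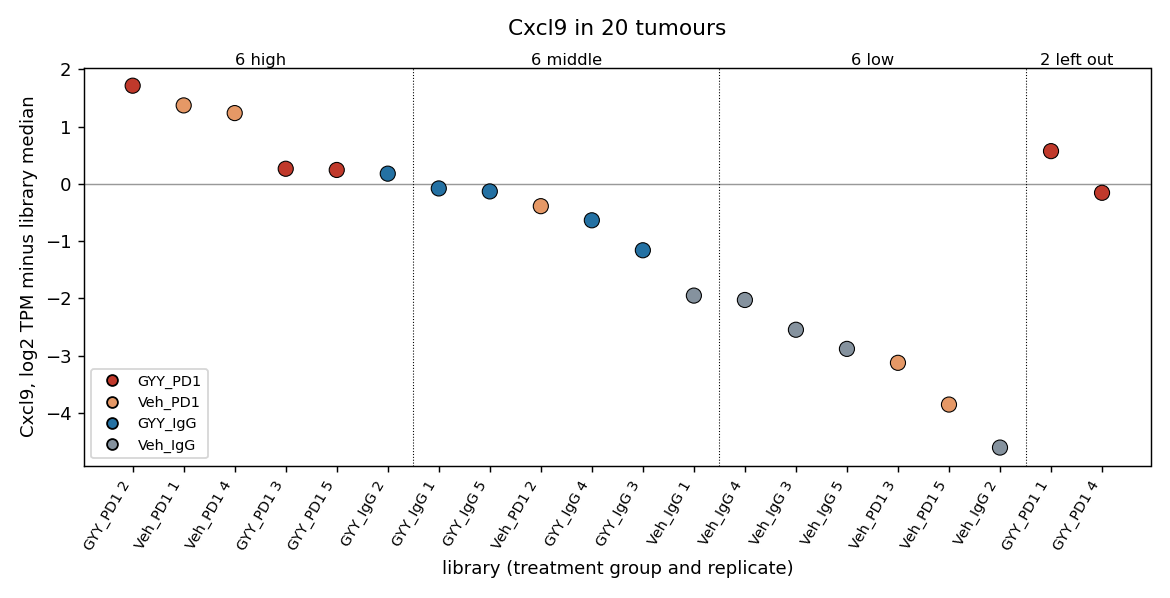
Cxcl9 in each of the 20 libraries (y axis, log2 TPM minus the library median), ordered from high to low with the 2 left-out libraries at the right and coloured by treatment group. The 6 high libraries lie between 0.18 and 1.71 and the 6 low ones between -4.60 and -2.03, and 4 of the 6 low ones are Veh_IgG.

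The split was not balanced over treatments. GYY_PD1 gave 3 high, 0 middle and 0 low libraries, Veh_PD1 gave 2 high, 1 middle and 2 low, GYY_IgG gave 1 high, 4 middle and 0 low, and Veh_IgG gave 0 high, 1 middle and 4 low. Veh_PD1 was the single group with libraries on both sides, so outside it Cxcl9 and treatment cannot be told apart in this comparison. Of the high-Cxcl9 tumours 5 of 6 had the PD1 antibody, against 2 of 6 low-Cxcl9 tumours, and 4 of 6 had GYY4137, against 0 of 6.

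The libraries also differed in composition along the split. A class of 13 gene models made of satellite-like tandem repeats took 11.1 to 59.6% of TPM in high-Cxcl9 tumours (38.9% ± 18.1, SD, n = 6) and 3.53 to 47.7% in low-Cxcl9 tumours (15.3% ± 16.4, SD, n = 6). The difference of 23.6 percentage points had p = 0.0433 in the exact two-sided permutation test over 924 arrangements and 0.173 after adjustment over the 4 library measures. With 1 library left out in turn, the exact p was under 0.05 in 2 of 12 cases. The nuclear protein-coding share was 20.7% ± 9.80 in high-Cxcl9 tumours and 27.9% ± 8.56 in low-Cxcl9 tumours (exact permutation p = 0.206). Genes with at least 1 TPM numbered 13522 ± 1010 in high-Cxcl9 tumours and 13955 ± 1224 in low-Cxcl9 tumours (exact p = 0.519), and the library median was 2.33 ± 0.63 log2 TPM in high-Cxcl9 tumours and 2.75 ± 0.59 in low-Cxcl9 tumours (exact p = 0.251). More than 20% of TPM was satellite-like in 5 of 6 high libraries and in 1 of 6 low ones, Veh_PD1 replicate 5. The satellite-like share was also fitted as a covariate for every gene, with the counts given below. What part the imbalance plays in the gene differences was not tested.

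Over 11833 protein-coding genes other than Cxcl9, 35 passed limma with a Benjamini-Hochberg adjusted p under 0.05 (0.296% of those tested). Of these 33 were higher in high-Cxcl9 tumours (0.279% of genes tested) and 2 were lower (0.0169%). An unadjusted p under 0.05 was reached by 1157 genes (9.78%). The median log2 difference of all tested genes was -0.02, or -0.44 on the deposited values without centring, against which differences on that scale have to be read. In these 12 libraries, leaving out the centring shifts every gene by the same -0.42, the high minus low difference in library median. That of the 33 called higher was 1.95, with a range of 0.71 to 3.68. Among the 33, 16 belonged to the interferon gamma response list, 6 to class II MHC presentation (Ciita is on both) and 2 to the type I interferon list, and 10 were on none of the 41 lists. All 6 high libraries lay above all 6 low ones for 31 of the 33, against 67 of all tested genes (0.566%), and all 6 lay below for 19 (0.161%). Non-overlap and the call are read from the same contrast, so neither supports the other.

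**Figure D2:**
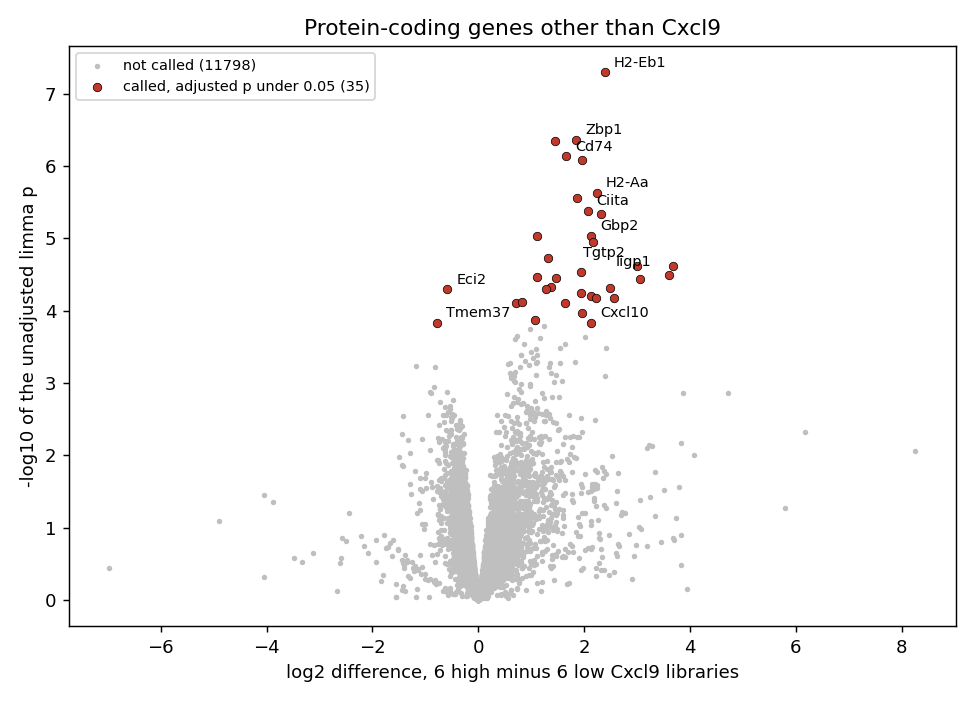
Each point is 1 of the 11833 tested protein-coding genes, with the log2 difference between the 6 high and the 6 low libraries (x axis) against -log10 of the unadjusted limma p (y axis). The 35 called genes are red. H2-Eb1 has the smallest p at a log2 difference of 2.39, and 33 of the 35 lie on the high-Cxcl9 side.

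These counts move with the libraries and terms of the fit. Without Veh_PD1 replicate 1, 11 genes were called. The count was 17 without Veh_PD1 replicate 4, 18 without GYY_PD1 replicate 2, GYY_PD1 replicate 3 or Veh_PD1 replicate 3, 21 without Veh_PD1 replicate 5, 22 without Veh_IgG replicate 3 and 52 without Veh_IgG replicate 4. Of the 35 genes, 11 were called in all 12 fits that leave out 1 library, among them H2-Eb1, H2-Aa, H2-Ab1, Cd74, Ciita, Zbp1, Batf2, Gbp2, Gbp2b and Gbp7. With treatment group as a covariate 6 genes were called, and with the satellite-like share as a covariate 12. The 6 libraries under 20% satellite-like share are 1 high against 5 low, the lone library assumed to vary like the others. That fit is therefore read by the size of differences only.

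Class II MHC held the smallest p. H2-Eb1 (chr17:34305867-34316674), the beta chain of the I-E molecule, had a lowest, median and highest level of 2.24, 2.80 and 3.30 log2 relative to the library median in high-Cxcl9 tumours, against -0.27, 0.30 and 1.25 in low-Cxcl9 tumours. No low library reached a high one, and the log2 difference was 2.39 ± 0.23 SE (5.26-fold, limma adjusted p = 0.000594). H2-Aa and H2-Ab1, the 2 chains of the I-A molecule, differed by 2.24 ± 0.30 (adjusted p = 0.00458) and 1.96 ± 0.24 (adjusted p = 0.00194). Cd74, the invariant chain that guards the groove of class II until peptide is loaded, was the most abundant member, with 96.6 to 275 TPM in high-Cxcl9 tumours and 21.3 to 127 TPM in low-Cxcl9 tumours. Relative to the library median its groups did not overlap (4.70 to 5.34 in high-Cxcl9 tumours, 2.83 to 4.02 in low-Cxcl9 tumours), and the difference was 1.66 ± 0.20 (limma adjusted p = 0.00194).

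Ciita, the coactivator that switches on class II genes, was low in absolute terms, at 1.39 to 3.77 TPM in high-Cxcl9 tumours and 0.33 to 1.45 TPM in low-Cxcl9 tumours. Relative to the library median its lowest, median and highest were -1.64, -1.20 and -0.61 in high-Cxcl9 tumours, against -3.92, -3.37 and -2.43 in low-Cxcl9 tumours (difference 2.06 ± 0.29, limma adjusted p = 0.00607). H2-DMb1, a chain of the peptide-loading chaperone H2-DM, differed by 1.94 ± 0.34 (adjusted p = 0.0268). In all, 6 of 10 measured members of the list of 12 were called higher (0.279% of all tested genes were), 0 lower and 4 not called. The median difference was 1.80 beside -0.02 over all genes. The list mean was 1.48 to 2.28 in the 6 high libraries and -0.23 to 0.90 in the 6 low ones.

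The interferon gamma response list had 23 of 26 members measured. Of these 16 were called higher (0.279% of all tested genes were), 0 lower and 7 not called. The median difference was 1.93 and all 23 were positive. Iigp1 (Irga6), a GTPase that attacks the vacuoles of intracellular parasites, had the largest log2 difference among called genes with a settled name. It stood at 1.45, 2.31 and 3.78 (lowest, median, highest) in high-Cxcl9 tumours, against -3.17, -0.38 and 0.38 in low-Cxcl9 tumours. The difference was 3.61 ± 0.61 (12.2-fold, limma adjusted p = 0.0216). Low values were most extreme in Veh_PD1 replicate 5 and Veh_IgG replicate 2, at 0.377 and 0.821 TPM, while the other 4 low tumours had 6.53 to 9.61 TPM.

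Tgtp1 and Tgtp2, GTPase genes of the interferon gamma response list, differed by 3.05 ± 0.52 (adjusted p = 0.0216) and 3.01 ± 0.49 (adjusted p = 0.0193). They are near-identical neighbours, so the split of reads between them is uncertain. Less alike relatives, such as Gbp2 and Gbp2b or related H2 genes, may share some reads too, to an extent that was not measured. The guanylate-binding proteins, large GTPases that coat and lyse pathogen membranes, were called at Gbp2b (2.32), Gbp4 (2.22), Gbp2 (2.14), Gbp3 (1.95), Gbp5 (1.93) and Gbp7 (1.10). Of the 12 fits that leave out 1 library, Gbp3 was called in 1, Gbp4 in 4 and Gbp5 in 6. Gbp2 (chr3:142620602-142638008) ran at 1.19, 2.04 and 3.30 in high-Cxcl9 tumours, against -1.10, 0.17 and 0.61 in low-Cxcl9 tumours (lowest, median, highest), with no overlap and limma adjusted p = 0.0100. The autophagy-linked GTPases Igtp, Irgm1 and Irgm2 differed by 2.16 ± 0.33, 1.37 ± 0.24 and 1.31 ± 0.21. Serpina3g, a serine protease inhibitor, differed by 2.49 ± 0.44 (adjusted p = 0.0250), and the transcription factor Batf2 by 1.87 ± 0.25 (adjusted p = 0.00462).

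Irf1, an interferon-induced transcription factor, had 0.99 to 2.09 in high-Cxcl9 tumours and 0.15 to 0.85 in low-Cxcl9 tumours. Its groups did not overlap, but its difference of 0.98 ± 0.20 missed the threshold (limma adjusted p = 0.0563). The feedback inhibitor Socs1, the kinase gene Jak2 and the transcription factor Irf9 had differences of 1.53, 0.40 and 0.44 and were not called.

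Ifng itself, the gene of the cytokine, did not pass the filter on low values. It was above 0 TPM in 4 of 6 high-Cxcl9 tumours, at 0.133 to 0.912 TPM, and in 1 of 6 low-Cxcl9 tumours, at 0.118 TPM. GYY_PD1 replicates 3 and 5, both high in Cxcl9, were listed at 0 TPM. Reads per library are not known, so a value of 0 cannot be told from a transcript missed at the depth reached.

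Of the CXCR3 system, Cxcl10 (chr5:92346638-92348889), which lies beside Cxcl9, stood at -0.23, 0.21 and 0.55 (lowest, median, highest) in high-Cxcl9 tumours, against -3.45, -2.18 and -0.59 in low-Cxcl9 tumours. The high values were tight and the low ones spread widely, without overlap, and the difference was 2.13 ± 0.42 (4.39-fold, limma adjusted p = 0.0493). Cxcl10 was called in 2 of the 12 fits that leave out 1 library, and its adjusted p was 0.213 with the satellite-like share and 0.296 with treatment as a covariate. Cxcl11 was under the filter, with 0.108 to 1.15 TPM in high-Cxcl9 tumours and 0.088 to 0.518 TPM in low-Cxcl9 tumours, and its groups overlapped. Cxcr3 was under the filter too, with 0 to 0.897 TPM in high-Cxcl9 tumours and 0.052 to 0.531 TPM in low-Cxcl9 tumours.

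The type I interferon list holds genes that viruses and interferon alpha and beta induce and that interferon gamma induces in part. It had 24 of 25 members measured, with 2 called higher (0.279% of all tested genes were), 0 lower and 22 not called. All 24 differences were positive and their median was 0.67. Without centring, which shifted every gene by the same -0.42, 15 were positive with a median of 0.25. The median was 0.55 under and 0.86 over 20% satellite-like share, and 0.40 in vehicle-treated libraries. Zbp1, a sensor of Z-form nucleic acid that can start necroptosis, stood at 1.30 to 2.59 in high-Cxcl9 tumours and -0.46 to 0.56 in low-Cxcl9 tumours (difference 1.85 ± 0.21, limma adjusted p = 0.00178). Oasl2, an oligoadenylate synthetase-like antiviral gene, differed by 1.28 ± 0.23 (adjusted p = 0.0250). Irf7, Rsad2 and Ifi44 had differences of 1.03, 0.87 and 1.58 and were not called (adjusted p of 0.106 to 0.149). Whether this list moved less than the interferon gamma list was not tested.

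Class I MHC and its peptide loading machinery had 18 of 18 members measured and 0 called in either direction by limma. An unadjusted p under 0.05 was held by 15 of the 18, against 9.78% of all tested genes. All 18 differences were positive, with a median of 0.49. H2-Q6, H2-Q7, Psme1, Psmb9 and Psmb10, which encode MHC-like molecules and proteasome parts that shape peptides, had differences of 0.86, 1.11, 0.60, 0.85 and 0.89 (adjusted p of 0.0793 to 0.254). The list mean was 2.18 to 3.09 in high-Cxcl9 tumours and 1.91 to 2.16 in low-Cxcl9 tumours. Without centring, which shifted every gene by the same -0.42, the list median was 0.06 with 10 of 18 positive. Among libraries under 20% satellite-like share the list median was 0.08 with 11 of 18 positive.

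Called genes outside those lists included Acod1, the macrophage enzyme that makes itaconate, with a difference of 2.14 ± 0.38 (adjusted p = 0.0281) and overlapping groups. Ifitm3, a membrane protein that blocks virus entry, was abundant, at 108 to 305 TPM in high-Cxcl9 tumours and 62.1 to 222 TPM in low-Cxcl9 tumours, and differed by 0.71 ± 0.13 (adjusted p = 0.0302). Slamf8, a receptor of myeloid cells, differed by 1.63 ± 0.30, the lysosomal peptide transporter gene Slc15a3 by 1.06 ± 0.21, and the ADP-ribosyltransferase gene Parp14 by 0.83 ± 0.15. Plbd1 and Spats2l differed by 1.10 ± 0.19 and 1.47 ± 0.25, and the provisionally named F830016B08Rik and Gm4951 by 3.68 ± 0.60 and 2.57 ± 0.46. The groups of Slc15a3 overlapped as well. In the 12 fits that leave out 1 library, Slamf8 and Slc15a3 were called in 2, and Acod1, Ifitm3 and Parp14 in 3. Gm4951 was called in 4 of the 12, Plbd1 in 5, Spats2l in 6 and F830016B08Rik in 10.

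**Figure D3:**
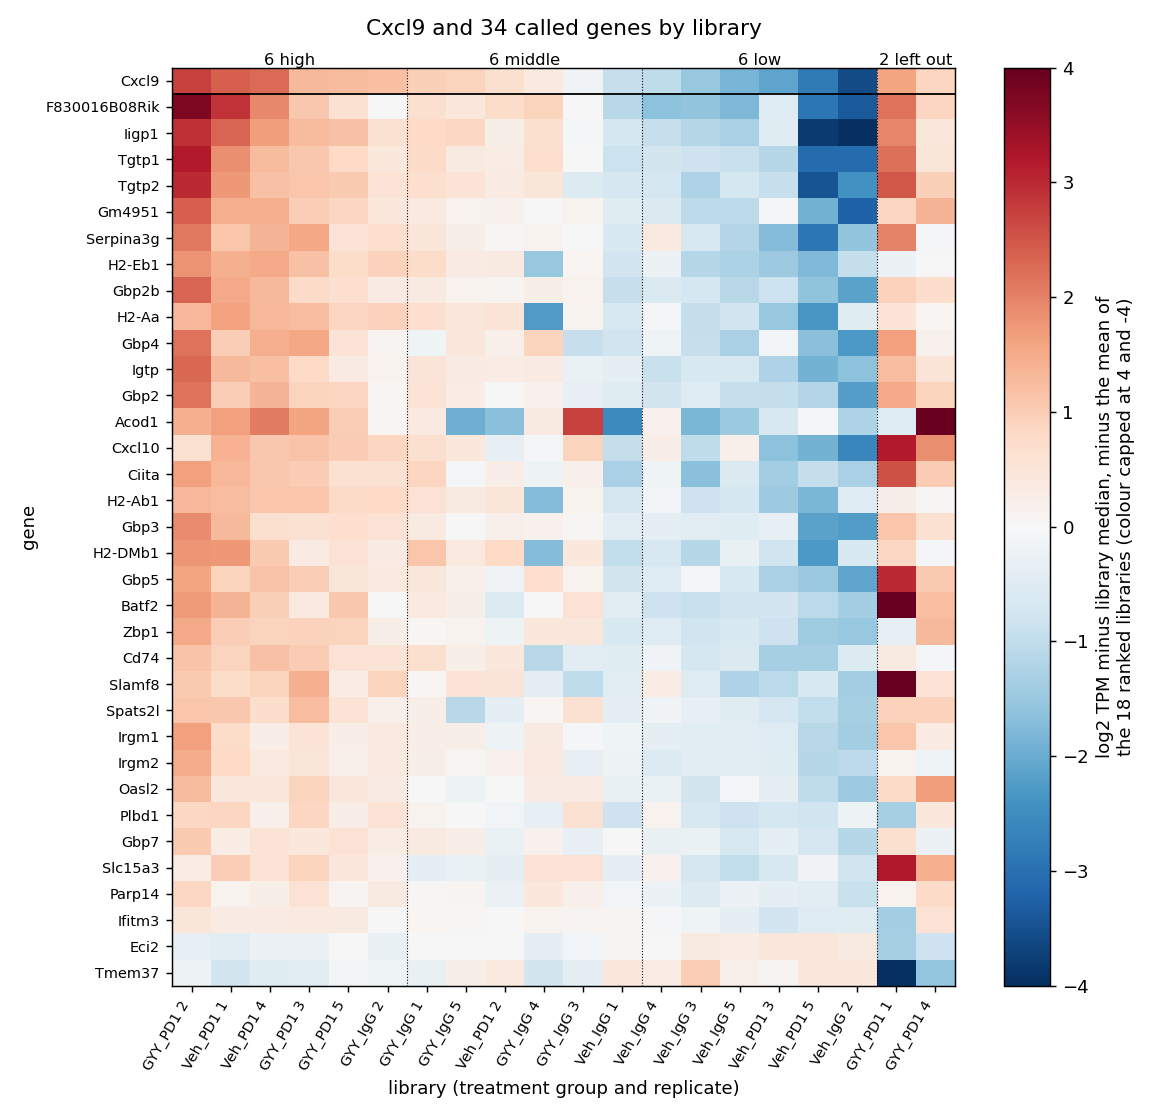
Cxcl9 (top row) and 34 of the 35 called genes by library, as log2 TPM minus the library median and minus the mean of the 18 ranked libraries (colour, capped at 4 and -4). Libraries run from high to low Cxcl9, with the 2 left-out libraries at the right. The rows below Cxcl9 were chosen by the difference between the outer columns, and the 6 middle columns played no part in that choice.

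The 2 genes called lower were Eci2, an enzyme that isomerises double bonds in the breakdown of unsaturated fatty acids, and Tmem37, a membrane protein. Eci2 stood at 0.68 to 1.11 in high-Cxcl9 tumours and 1.13 to 1.58 in low-Cxcl9 tumours (difference -0.58 ± 0.10, limma adjusted p = 0.0250). Tmem37 stood at 0.27 to 0.87 in high-Cxcl9 tumours and 1.11 to 1.99 in low-Cxcl9 tumours (difference -0.77 ± 0.15, adjusted p = 0.0493). Eci2 was called in 3 and Tmem37 in 0 of the 12 fits that leave out 1 library. The next smallest p values on that side belonged to genes not called: mt-Nd4l (-1.17), Atp5l (-0.82), Ttc32 (-0.59), Serp2 (-0.92), Ocel1 (-0.90), Tcta (-0.48), Bik (-0.73), Cfap20 (-0.53), Zfand1 (-0.62), Tefm (-0.54), Ccdc107 (-0.58), Mrpl41 (-0.50) and Akap1 (-0.46), with adjusted p of 0.113 to 0.254. The 13 mitochondrially encoded genes, none of them called, all had negative differences, with a median of -0.43. Of the 13, 2 had an unadjusted p under 0.05, against 9.78% of all tested genes.

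Of the 18 T cell markers 5 passed the filter on low values, and limma called 0 of them, while 4 had an unadjusted p under 0.05 (9.78% of all tested genes did). Several passed the filter through the high libraries: 1 TPM was reached by Cd3e in 4 high and 0 low libraries, by Cd3g in 5 and 0, by Cd2 in 5 and 1, by Cd4 in 5 and 2, and by Lck in 6 and 5. Their differences are therefore values only, with no weight for the list. Cd3e, part of the T cell receptor complex, had 0.861 to 2.41 TPM in high-Cxcl9 tumours and 0.330 to 0.749 TPM in low-Cxcl9 tumours. Relative to the library median it stood at -2.34, -1.96 and -0.76 (lowest, median, highest) in high-Cxcl9 tumours, against -4.49, -4.08 and -2.38 in low-Cxcl9 tumours (difference 2.02 ± 0.41, limma adjusted p = 0.0695). Cd4, Cd3g and Cd2 had differences of 2.41, 3.87 and 1.25, also without overlap (0.566% of all tested genes), and Lck one of 0.47 with overlap. Cd3g was listed at 0 TPM in 1 low library, so its size depends on how 0 is written.

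The summed level of all 18 T cell markers, rescaled to protein-coding transcripts, was 81.5 to 123 TPM in high-Cxcl9 tumours and 23.4 to 35.7 TPM in low-Cxcl9 tumours. The 14 markers of cytotoxic and natural killer cells, none of which passed the filter, summed to 15.6 to 55.5 TPM in high-Cxcl9 tumours and 7.15 to 12.6 TPM in low-Cxcl9 tumours. No marker of either list was at 0 TPM in all 12 libraries. In bulk RNA a difference in the number of cells and a difference in the RNA per cell cannot be told apart. Cd8a, the co-receptor of killer T cells, had 0.111 to 2.14 TPM in high-Cxcl9 tumours and 0.023 to 0.206 TPM in low-Cxcl9 tumours. The granule protease gene Gzmb had 0.107 to 1.15 TPM in high-Cxcl9 tumours and 0.065 to 0.246 TPM in low-Cxcl9 tumours, and Nkg7 had 0.342 to 2.10 TPM in high-Cxcl9 tumours and 0 to 0.564 TPM in low-Cxcl9 tumours. Pdcd1, which encodes PD1, ran from 0 to 1.21 TPM in high-Cxcl9 tumours and 0.059 to 0.235 TPM in low-Cxcl9 tumours, the value of 0 being Veh_PD1 replicate 1. The part that the T cell markers play in the gene differences was not tested.

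Ptprc, the pan-leukocyte marker CD45, named here after its values were seen, stood at 1.44 to 1.88 in high-Cxcl9 tumours and 0.42 to 1.44 in low-Cxcl9 tumours (difference 0.69 ± 0.17, limma adjusted p = 0.150). The macrophage list had 16 of 16 members measured and 0 called by limma (3 with an unadjusted p under 0.05, against 9.78% of all tested genes). It had 13 positive and 3 negative differences and a median of 0.25. The median was -0.17 without centring, which shifted every gene by the same -0.42. Under 20% satellite-like share the median was -0.11, against 1.45 over 20%. It was 0.94 in antibody-treated libraries, 0.86 with treatment as a covariate and 0.05 without Veh_PD1 replicate 5. Its members differed in size and sign. Aif1 had a difference of 1.54, Adgre1 0.64, Csf1r 0.49 and Cd14 0.34, while the scavenger receptor gene Cd163 had -1.30 (adjusted p of 0.109 to 0.583). Their summed level was 4365 to 7884 protein-coding TPM in high-Cxcl9 tumours and 2529 to 6285 in low-Cxcl9 tumours. Among dendritic cell markers 6 of 12 were measured and limma called 0 (4 of the 6 with an unadjusted p under 0.05, beside the same 9.78%). The differences were 0.87 for Wdfy4, 1.71 for Ccr7, 1.26 for Batf3, 0.36 for Naaa and 0.75 for Itgax, with a list median of 0.81.

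The checkpoint list had 6 of 14 members measured and 0 called by limma (4 with an unadjusted p under 0.05, against 9.78% of all tested genes). Its median was 0.63, and 0.18 under and 0.97 over 20% satellite-like share. Cd274, which encodes the PD1 ligand PD-L1, stood at 0.06, 0.88 and 1.02 (lowest, median, highest) in high-Cxcl9 tumours, against -0.41, -0.01 and 0.52 in low-Cxcl9 tumours. The groups overlapped and the difference of 0.66 ± 0.20 was not called (limma adjusted p = 0.330), and it was 0.13 under 20% satellite-like share. Entpd1, Nt5e, Vsir and Havcr2 had differences of 0.65, 0.87, 0.49 and 0.61 (adjusted p of 0.221 to 0.549).

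Markers of host tissue varied too. Limma called 0 of the fibroblast, adipocyte and erythroid genes. An unadjusted p under 0.05 was held by 4 of 16, 5 of 8 and 5 of 6 measured genes, against 9.78% of all tested genes. The 16 fibroblast and matrix genes all had positive differences (13 of them without centring), with a median of 1.24, or 0.77 without GYY_PD1 replicate 3, 0.64 in vehicle-treated libraries and 2.08 over 20% satellite-like share, and included Thy1 (0.87), Fap (1.40), Dcn (2.38), Col3a1 (2.22) and Col6a1 (0.85). The adipocyte list had the highest median of all lists with at least 3 measured members, 3.23 over 8 of 11 genes, and 2.14 without GYY_PD1 replicate 3, which alone had a list mean of 4.47 while the other high libraries ran from -1.28 to 0.09. Its median was 1.28 in vehicle-treated libraries and 2.34 with treatment as a covariate. Cfd, Cidec, Retn, Adipoq and Car3 had differences of 3.83, 3.22, 4.08, 3.33 and 3.24 (adjusted p of 0.347 to 0.481), and Retn was listed at 0 TPM in 1 low library. All 6 measured erythroid genes had negative differences with a median of -1.43, among them Hbb-bt (-1.42), Hba-a1 (-1.44), Hbb-bs (-1.49), Hba-a2 (-1.45) and Alas2 (-1.09), where the paired globin copies share reads. Their median was -0.45 with treatment as a covariate and -0.65 in vehicle-treated libraries, and 1 of the 6 was positive under 20% satellite-like share. The summed level of the erythroid list was 48.8 to 424 protein-coding TPM in high-Cxcl9 tumours and 259 to 1097 in low-Cxcl9 tumours.

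Over the 12 libraries several lists of tumour cell programs had medians near that of all genes. The medians were -0.01 for mitosis, 0.00 for DNA replication, -0.07 for MYC and nucleolar targets, -0.04 for hypoxia, 0.14 for glycolysis, -0.04 for p53 targets, 0.12 for NRF2 targets and 0.09 for SWI/SNF subunits, beside -0.02 over all tested genes. Limma called 0 genes in each of these lists. The lists of mitosis, DNA replication, MYC targets, hypoxia, glycolysis and SWI/SNF held 0 with an unadjusted p under 0.05. Those of p53 and NRF2 targets held 1 each, beside 9.78% of all tested genes. Oxidative phosphorylation had a median of -0.14 with 13 of 17 genes negative. It held 0 called genes and 4 with an unadjusted p under 0.05, and its median changed sign in 0 of 21 other settings. Epithelial identity had a median of 0.31 over 8 genes, with 0 called and 2 with an unadjusted p under 0.05. Its median changed sign in 2 of 21 other settings. These medians depend on the libraries used. Under 20% satellite-like share mitosis had 0.33, SWI/SNF subunits 0.36 and hypoxia -0.54, and over 20% hypoxia had -0.59 and glycolysis -0.45. The 7 measured genes of sulfide production and oxidation, the pathway nearest to what GYY4137 releases, had a median of -0.02 with 0 called by limma. Of the 7, 2 had an unadjusted p under 0.05, beside the same 9.78%.

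Further lists held no called gene in limma. Chemokines other than the CXCR3 ligands had a median of 0.89 over 20 of 24 genes (7 with an unadjusted p under 0.05, against 9.78% of all tested genes). Under 20% satellite-like share that median was -0.16. The medians were 0.36 for complement, 0.50 for monocytes, 0.33 for neutrophils, -0.04 for B and plasma cells, 0.38 for endothelial cells, 0.72 for proximal tubule and 0.13 for distal nephron, and those of neutrophils, B cells, endothelium and distal nephron changed sign in 3 to 8 of 21 other settings. Monocytes had -0.09 and complement 0.03 under 20% satellite-like share. An unadjusted p under 0.05 was held by 6 of 10 monocyte, 4 of 13 complement and 1 of 12 proximal tubule genes. The neutrophil, B and plasma cell, endothelial and distal nephron lists held 0. NF-kB and inflammatory cytokines had a median of 0.35, with 13 of 14 genes positive and 6 with an unadjusted p under 0.05. The proximal tubule median ran from 0.03 in vehicle-treated libraries to 2.46 under 20% satellite-like share, and from 0.31 without GYY_PD1 replicate 3 to 1.18 without GYY_PD1 replicate 5.

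**Figure D4:**
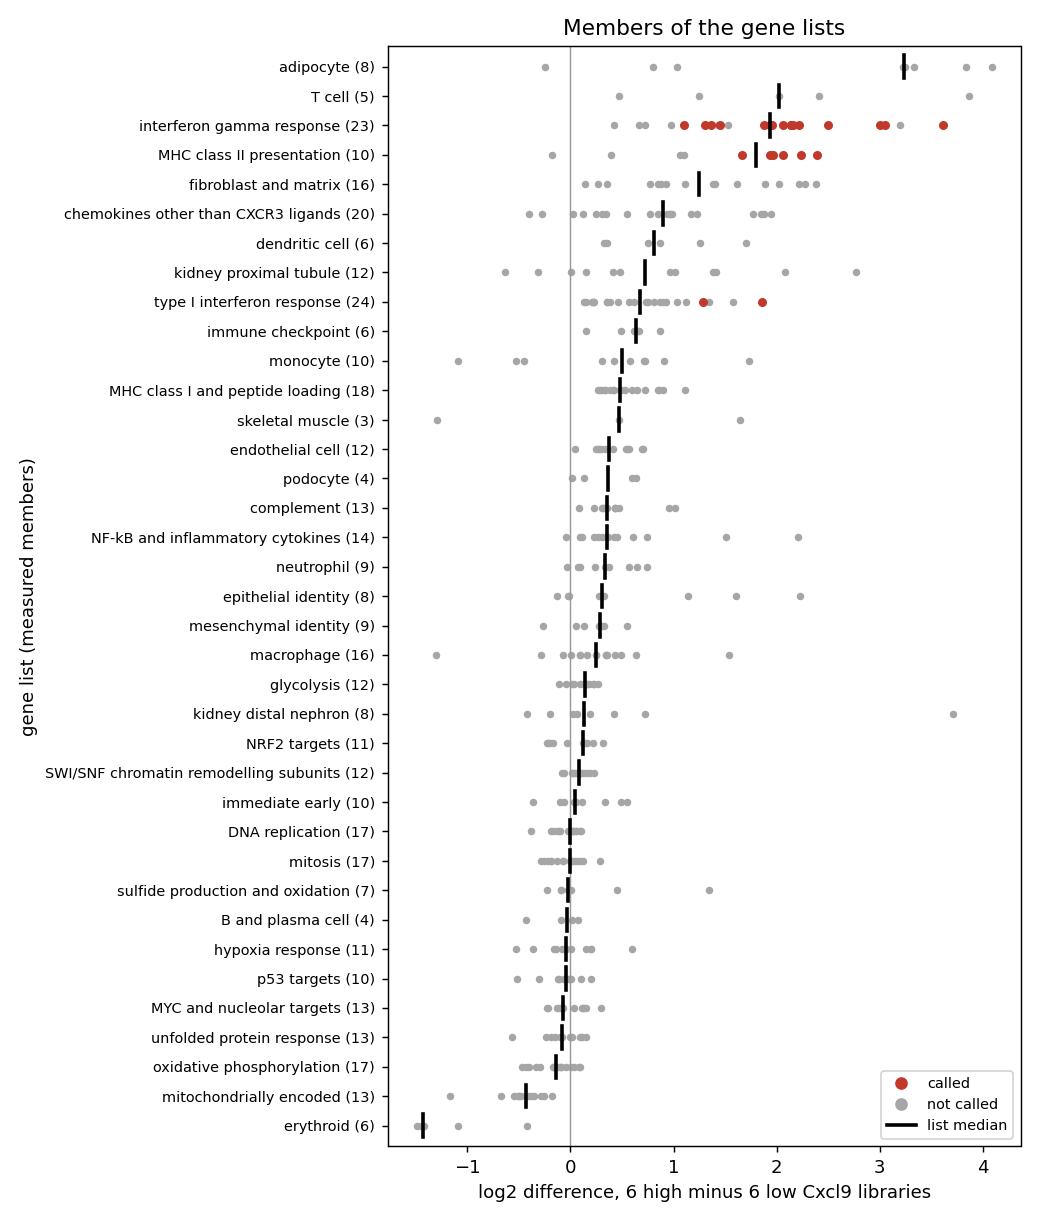
Log2 difference between the 6 high and the 6 low libraries (x axis) for every measured member of each list with at least 3 (rows, number in brackets), called genes in red and list medians as black bars. Red points occur in the interferon gamma response, class II and type I interferon lists. The medians of mitosis, DNA replication and MYC targets lie near 0.

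The 33 higher genes were also read in the libraries that took no part in the test. The mean of the 33 over a library was 0.58, 0.30, 0.21, 0.16, 0.30 and -0.45 in the middle libraries from rank 7 to 12, against 0.58 to 1.85 in the high and -1.43 to -0.18 in the low libraries. The 2 left-out libraries, in which satellite-like models took 53.6% and 83.4% of TPM, had 1.46 and 0.90. In GYY_PD1 replicate 1, 29 of the 33 genes lay above all 6 low libraries (29.4% of all tested genes), and in GYY_PD1 replicate 4, 32 did (21.2%). The genes had been chosen for low values in those 6 libraries, so these shares are not on an equal footing. Their Cxcl9 stood at 0.57 and -0.16.

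Within Veh_PD1, the group with libraries on both sides, H2-Eb1 was 2.93 and 3.00 in Veh_PD1 replicates 1 and 4, against 0.06 and -0.27 in Veh_PD1 replicates 3 and 5. With treatment as a covariate, a fit that rests on these 4 libraries for the difference, H2-Eb1 (3.08, adjusted p = 0.00624), H2-Aa, H2-Ab1 and Cd74 kept an adjusted p under 0.05 in limma among the 35.

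Under 20% satellite-like share stood 1 high and 5 low libraries, and over 20% 5 high and 1 low. H2-Eb1 differed by 1.92 under 20%, against 2.39 over all 12 libraries. The median of the interferon gamma response list was 1.13 under 20% and 2.42 over 20%, and that of the class II list 1.11 under 20% and 2.23 over 20%. The T cell list had 1.75 under 20% and 1.34 over 20%. Several of its members passed the filter through the high libraries, so these 2 medians carry no weight.

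**Figure D5:**
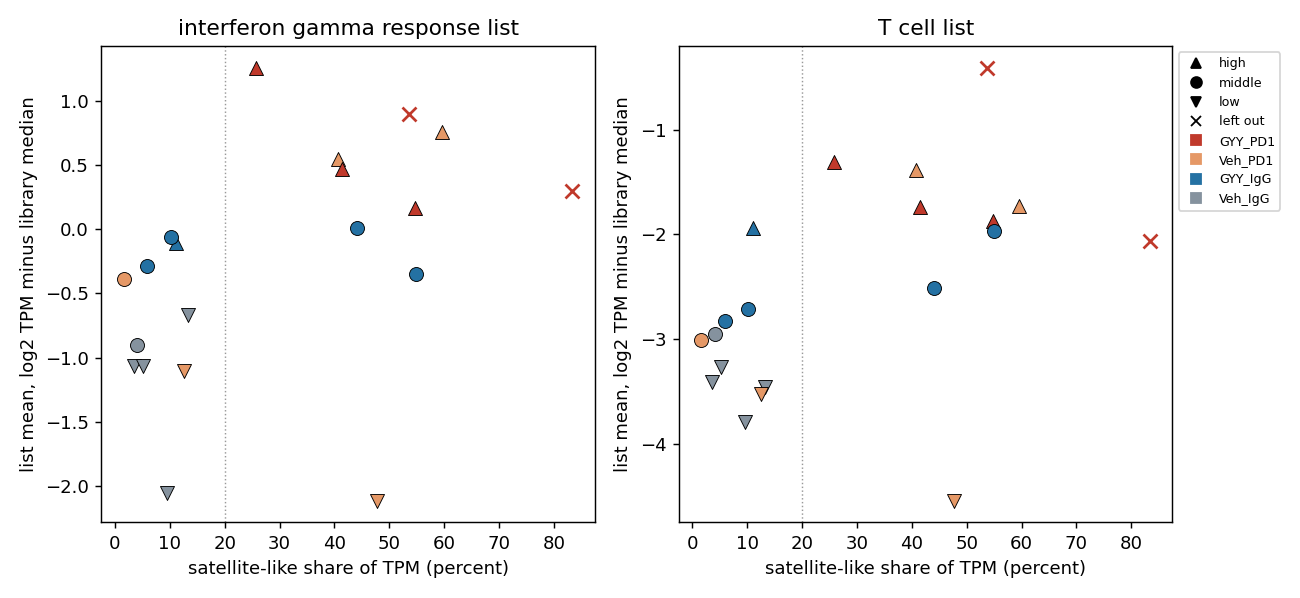
Mean of the interferon gamma response list (left) and of the T cell list (right) in each library (y axes, log2 TPM minus library median) against the satellite-like share of TPM (x axes, percent), with symbols for the Cxcl9 class, colours for the treatment group and a dotted line at 20%. Veh_PD1 replicate 5, low in Cxcl9 at a share of 47.7%, has the lowest list mean in both panels, at -2.11 and -4.54. In the right panel that value rests in part on Cd3g, listed there at 0 TPM and so at -10.46, in a list of 5 measured genes. Several of the 5 passed the filter through the high libraries, so the right panel gives values only.

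Over the 18 ranked libraries, the 10 genes with at least 5 TPM on average whose levels followed Cxcl9 most closely included Gbp2b (Pearson r = 0.97), Tgtp1 (0.96), Igtp (0.96), Gbp2 (0.96), Iigp1 (0.95), Zbp1 (0.95), Tgtp2 (0.94), F830016B08Rik (0.94) and Irgm2 (0.93). All 10 were among the 33 called genes, which the 12 outer libraries had chosen. These are descriptions over libraries that share the same centring, with no test.

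The promoters of Cxcl9 and of 5 called genes, picked after the values were seen, are shown so that the windows searched for interferon motifs can be read, with and without a match. Each is the 300 bases from 250 before to 50 after a RefSeq gene start (GRCm38.p6), written 5′ to 3′ on the strand of the gene. Capitals mark matches, on either strand, to TTCNNNGAA, the core of the gamma-activated site, and to GAAANNGAA, a core of the interferon-stimulated response element that interferon regulatory factors bind.
Cxcl9 promoter (chr5:92328030-92328329, minus strand): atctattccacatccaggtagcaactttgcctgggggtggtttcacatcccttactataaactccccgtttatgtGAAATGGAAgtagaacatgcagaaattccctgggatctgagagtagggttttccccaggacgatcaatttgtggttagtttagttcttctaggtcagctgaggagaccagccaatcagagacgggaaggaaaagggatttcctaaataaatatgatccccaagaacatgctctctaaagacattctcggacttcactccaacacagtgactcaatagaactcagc
Cxcl10 promoter (chr5:92348840-92349139, minus strand): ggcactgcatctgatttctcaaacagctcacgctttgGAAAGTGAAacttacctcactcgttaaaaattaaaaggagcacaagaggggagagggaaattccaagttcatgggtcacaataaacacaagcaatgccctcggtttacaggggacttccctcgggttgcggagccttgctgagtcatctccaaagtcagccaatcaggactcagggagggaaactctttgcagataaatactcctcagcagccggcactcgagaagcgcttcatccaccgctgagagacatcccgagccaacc
Gbp2 promoter (chr3:142620413-142620712, plus strand): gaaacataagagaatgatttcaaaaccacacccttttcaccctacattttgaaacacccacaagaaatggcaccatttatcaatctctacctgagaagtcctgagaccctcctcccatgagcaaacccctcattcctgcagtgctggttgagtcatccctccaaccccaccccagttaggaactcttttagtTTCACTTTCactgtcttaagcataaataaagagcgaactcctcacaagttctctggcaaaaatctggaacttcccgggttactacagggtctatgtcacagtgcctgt
Gbp5 promoter (chr3:142496684-142496983, plus strand): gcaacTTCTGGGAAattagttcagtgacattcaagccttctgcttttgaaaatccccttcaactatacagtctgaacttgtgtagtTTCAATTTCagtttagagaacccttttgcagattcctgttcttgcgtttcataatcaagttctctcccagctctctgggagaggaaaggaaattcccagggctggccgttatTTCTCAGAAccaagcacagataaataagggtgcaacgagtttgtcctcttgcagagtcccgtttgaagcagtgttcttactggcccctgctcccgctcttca
Irgm1 promoter (chr11:48871371-48871670, minus strand): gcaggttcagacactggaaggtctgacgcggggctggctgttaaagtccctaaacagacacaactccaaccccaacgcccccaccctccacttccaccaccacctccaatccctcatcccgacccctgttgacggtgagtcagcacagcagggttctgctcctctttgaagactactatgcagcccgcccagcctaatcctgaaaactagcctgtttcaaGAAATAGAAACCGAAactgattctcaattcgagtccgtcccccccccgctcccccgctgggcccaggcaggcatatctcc
H2-Eb1 promoter (chr17:34305617-34305916, plus strand): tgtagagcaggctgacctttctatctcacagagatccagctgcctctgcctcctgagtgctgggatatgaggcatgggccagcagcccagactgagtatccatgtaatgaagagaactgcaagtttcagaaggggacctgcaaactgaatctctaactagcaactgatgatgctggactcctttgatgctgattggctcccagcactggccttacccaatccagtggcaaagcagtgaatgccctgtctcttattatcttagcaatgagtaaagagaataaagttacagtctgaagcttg

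The Cxcl9, Cxcl10 and Gbp2 windows each hold 1 match to GAAANNGAA, which in Gbp2 is on the opposite strand. The Irgm1 window holds 2 that overlap each other. The Gbp5 window holds 2 matches to TTCNNNGAA and 1 to GAAANNGAA, and the H2-Eb1 window holds neither. No base in these windows belongs to matches of both motifs.

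Of the 33 genes called higher 21 had a promoter in the RefSeq table. TTCNNNGAA occurred in 8 of the 21 (38.1%), against 786 of 9308 tested genes with a promoter (8.44%), and GAAANNGAA in 13 of 21 (61.9%), against 830 of 9308 (8.92%). Gbp5, Gbp7, Ifitm3, Igtp, Irgm2, Tgtp1 and Tgtp2 held both. Both promoters of genes called lower held neither. A match in this window is a run of letters and not a measured binding site, several of these genes are neighbouring copies of each other, and the lack of one says nothing of sites outside the window.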

How the data were processed

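Total RNA of 20 kidney tumours, 1 per mouse, was sequenced in bulk, and the labels call the 5 mice of a group biological replicates. The high and low classes each mix treatment groups. The spread behind the p-values therefore holds differences between mice and between treatments. The authors deposited TPM on a log2 scale, without a pseudocount, and 0 TPM as -8.88. The submitters' processing notes list Salmon 0.14.1, HTSeq 0.11.0, cutadapt, fastp and mm10, with no role for each. TPM keep no read number, so depth is unknown and counting error cannot be stated.

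The members, gene lists and rules were chosen with earlier results of these data known, and the lists described by named members after their values were seen. Gene types and positions came from GENCODE M21, in which 33928 of 34234 gene names were found. Tested were the 11833 protein-coding genes that reach 1 TPM in 5 or more of 20 libraries, 12 of them satellite-like models and 13 mitochondrially encoded. Satellite-like models are the 13 whose transcripts of at least 400 bases repeat at a shift of 225 to 240 bases with at least 50% identity and share at least 10% of 12-base words with Gm26870. Values are log2 TPM minus the library median; a log2 difference is the mean of high minus that of low libraries. The protein-coding scale divides TPM by the total of nuclear protein-coding genes without Cxcl9 and without satellite-like models.

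limma 3.58.1 in R 4.3.3, with trended variance, gave two-sided p-values adjusted by Benjamini-Hochberg over all tested genes. Library measures used exact permutation (scipy 1.17.1). A called gene is not reported by name here. Lists have no test: they are described by counts and medians. Named genes were the 15 largest rises and falls among called genes that do not overlap and are never at 0 TPM, filled up on the side of the falls by the smallest p, with up to 5 smallest-p members of a described list, a fixed set of genes given in any case and the 10 most like Cxcl9. Other scales, pseudocounts, filters, splits, covariates and single left-out libraries were tried; the 3 restricted to antibody-treated, vehicle-treated or high-satellite libraries were chosen after seeing the data.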

Additional observations from a re-analysis of the deposited data

Results flagged for a closer look

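In 162 checks of groups of 6 libraries, 14 had 1 library set apart from the other 5 by more of the range than Dixon's 95% limit allows; chance gives about 1 in 20. Veh_PD1 replicate 5 stood apart among the low-Cxcl9 tumours in all 4 library measures: its satellite-like share was 47.7% (others 3.53 to 13.2%), its protein-coding share 11.8% (others 28.1 to 37.2%), its genes with at least 1 TPM 11517 (others 14074 to 14821) and its library median 1.58 log2 TPM (others 2.88 to 3.19). Among high-Cxcl9 tumours, GYY_PD1 replicate 2 stood above the others in Irgm1 at 3.03 (others 1.65 to 2.11), and GYY_PD1 replicate 3 in the adipocyte list mean at 4.47 (others -1.28 to 0.09) and the podocyte list mean at 0.41 (others -0.59 to -0.22). GYY_IgG replicate 2 stood below the other high-Cxcl9 tumours in Ifitm3 at 4.86 (others 5.21 to 5.38), in the hypoxia list mean at 2.19 (others 2.84 to 3.23) and in the glycolysis list mean at 4.08 (others 4.46 to 4.64).

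Among the low-Cxcl9 tumours, Tmem37 was apart in Veh_IgG replicate 3 at 1.99 (others 1.11 to 1.43) and Eci2 in Veh_IgG replicate 4 at 1.13 (others 1.43 to 1.58). The adipocyte list mean was apart in Veh_IgG replicate 5 at 0.64 (others -3.31 to -2.04). The list mean of NF-kB and inflammatory cytokines was apart in Veh_IgG replicate 4 at 0.43 (others -0.32 to -0.07).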

How the results depend on the processing

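The 35 called genes became 60 on the deposited values without centring (44 higher, 16 lower, against 33 and 2; 15 of the 35 among them, with the median of all genes at -0.44), 7 when libraries were ranked by deposited Cxcl9, 54 with 5 against 5 libraries, 13 with 9 against 9, 110 with Cxcl9 as a continuous variable and 23 with all 20 libraries ranked. The count was 12 with the satellite-like share and 6 with treatment as a covariate, 19 with library weights and 16 with no trend in the variance. Settings added after seeing the data gave 11 in antibody-treated and 10 in vehicle-treated libraries. The fits under and over 20% satellite-like share leave 1 library on a side, so no count is given for them. The cause was not tested; the restricted fits use fewer libraries. The protein-coding scale gave 42, the pseudocounts 39 and 38, the filters 29 to 37, and ranking by protein-coding Cxcl9 chose the same libraries. Leaving out 1 library gave 11 to 52 genes. With the replicate number as a block 1 gene was called; the numbers do not pair the mice, since deviations of same-numbered libraries correlated at -0.33 to 0.35 (median 0.01) and 5 of 18 libraries correlated best with their own number.

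None of the reversed genes was called. They were Ocel1 (0.34) and Ccdc107 (1.11) with all 20 libraries ranked, and Havcr2 (-0.0771) and Batf3 (-1.01) under 20% satellite-like share. Without centring Smarcb1 (-0.20), Jak2 (-0.0215), Cd14 (-0.0803) and Naaa (-0.0668) reversed. Leaving out the centring shifts every gene by the same -0.42, so any smaller positive difference turns negative. Leaving out 1 library moved the difference in satellite-like share between 19.5 and 30.1 percentage points (exact p between 0.013 and 0.0866), in protein-coding share between -10.9 and -5.26 (exact p = 0.0346 without GYY_IgG replicate 2), in genes with at least 1 TPM between -921 and -232, and in the library median between -0.66 and -0.26. The mitochondrially encoded list has no value on the protein-coding scale, nor the skeletal muscle list under the filter of 5 TPM. Depth is unknown, which limits what can be said of Ifng, Cxcr3 and the cytotoxic markers near 0 TPM.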
